A study of Mus musculus with 6 samples.

Results

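The genes described here are 10 genes of calcium handling in heart muscle: the channel genes Cacna1c, Cacna1h and Cacna2d2, the release channel gene Ryr2, the store genes Casq2 and Sypl2, the pump gene Atp2a2, its inhibitors Pln and Sln, and the exchanger gene Slc8a1. They were chosen by symbol, as rows of the array that name exactly 1 gene, and all 10 were measured among 14860 genes in all. Slc8a1 had 2 rows, of which the one with the higher mean was kept. Expression was measured in mouse hearts at E13.5, a stage in the middle of gestation, with 3 arrays per genotype and a pool of 4 to 6 hearts on each array. Control hearts were Hic2 FL/FL, with floxed Hic2 and no Cre. Knockout hearts were Mesp1 Cre/+; Hic2 FL/FL, in which the same floxed alleles meet a Cre recombinase driven from Mesp1, a gene of the early mesoderm. Floxed Hic2 is therefore shared by both groups, and no group carried Cre alone, so an effect of the Cre allele cannot be told apart from an effect of losing Hic2, a gene for a zinc finger transcription factor.

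In a heart muscle cell each beat begins when the membrane depolarises and voltage-gated channels admit a little calcium. This calcium opens ryanodine receptors in the sarcoplasmic reticulum, which release a much larger store and start contraction. The muscle relaxes as the SERCA pump returns calcium to the store and the sodium-calcium exchanger removes the rest across the cell membrane. In the embryonic heart the reticulum is still maturing, and entry across the membrane carries more of the cycle than in the adult.

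Sypl2 fell by 34.0% of its signal in the knockout, and the other 9 members did not pass the test. Of the 10 members 1 had a limma adjusted p under 0.05, with p-values adjusted over all 14860 genes, where 0.559% of all genes passed in either direction, 0.222% as lower and 0.336% as higher. The values of the 9 others differed by at most 0.23 on the log2 scale in either direction. The median log2 change of the 10 members was -0.09, beside 0.00 over all genes, and 8 of 10 members were below 0, as were 48.4% of all genes. Leaving out 1 array at a time moved the members' median between -0.16, without knockout replicate 1, and -0.061, without knockout replicate 3.

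Sequence before the start is shown for Sypl2, the member whose signal changed, and for Casq2, the other store gene, whose change was above 0 and did not pass. Both come from RefSeq's promoter table (build GRCm38.p6), in which 250 bases before a start were searched, and are written 5′ to 3′ on the gene's own strand. For Sypl2 only 30 bases are given, chosen as those around its E-box CACGTG, so that they hold this motif by choice. Its annotated gene span begins 140 bases upstream of the window, and the window therefore lies inside that span. Capitals mark the E-box CACGTG and each GGCA on either strand, which reads TGCC where it lies on the other strand. GGCA is the core of the sequence known to be bound by HIC1, the closest relative of HIC2.
Sypl2, chr3:108226657-108226686, minus strand: gcgatcgcacgcCACGTGactcggcTGCCa
Casq2, chr3:102086165-102086414, plus strand: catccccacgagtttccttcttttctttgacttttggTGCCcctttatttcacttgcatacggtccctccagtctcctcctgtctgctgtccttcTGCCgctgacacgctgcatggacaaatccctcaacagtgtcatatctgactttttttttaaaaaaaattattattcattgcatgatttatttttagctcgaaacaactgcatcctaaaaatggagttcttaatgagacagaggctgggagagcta
The whole 250-base Sypl2 window held 3 matches to GGCA and the Casq2 window 2, and the median over all promoters was 2. Of 32851 promoter windows of the same length 88.2% held at least 1 match, so such matches are common. The whole Sypl2 window also held CACGTG, a palindrome that begins 75 bases before the start and is found in 6.02% of all windows. E-boxes of the general form CANNTG, of which CACGTG is a case, occurred 2 times in each window and at least once in 66.2% of all windows. The table held windows for 7 of the 10 members, 9 windows in all. GGCA occurred in 9 of them, CANNTG in 8 and CACGTG in 1. These are matches of letters and not measured binding sites.

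The 6 arrays correlated at 0.993 to 0.997 over all genes. The deposited values were log2 expression values normalised together, with medians per array of 8.25 to 8.36 over the genes tested. Signal of the Hic2 probe set was 8.17 ± 0.08 (SD, n = 3) in controls and 8.02 ± 0.06 (SD, n = 3) in knockouts, and its limma adjusted p was 0.314. Whether its probes lie inside the floxed part is not known here, so it does not check the labels. Control replicate 3 stood apart in the Y-linked genes, with Eif2s3y at 4.36 against 8.51 to 9.64 elsewhere. Without it 13 genes passed in all, Sypl2 still among them, the members' median was -0.065, and 7 of 10 members were below 0. Over all genes 83 passed (50 higher, 33 lower), and 3 to 28 passed when any 1 array was left out. Cardiomyocyte markers were present at high signal on every array, with a summed signal of 15.80 to 15.83 in controls and 15.71 to 15.81 in knockouts on the log2 scale. Of their 7 measured members 0 passed the limma test over all genes, and 1, Nkx2-5 at -0.37, had an unadjusted p under 0.05. In tissue pools such as these, fewer cells of a type and less RNA per cell cannot be told apart.

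**Figure D1:**
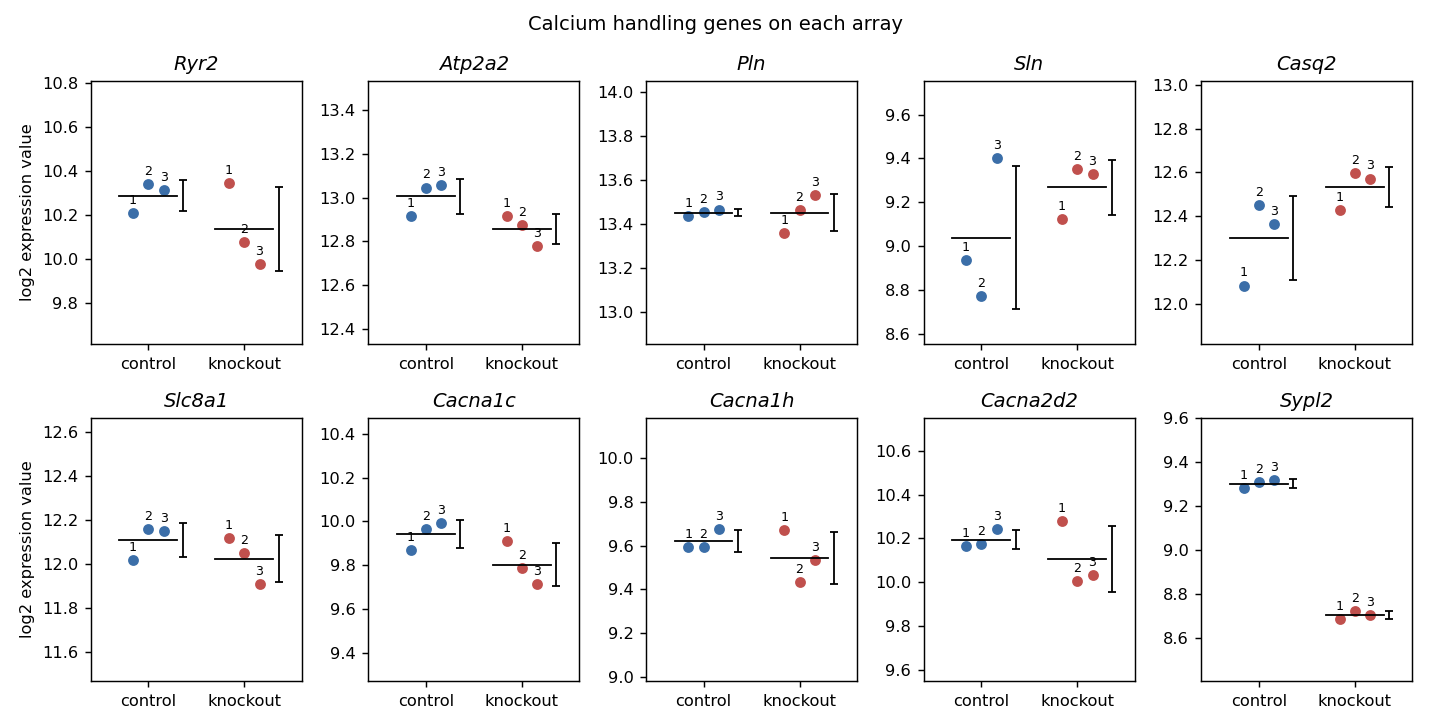
Log2 expression value of each calcium handling gene (vertical axis, each panel spanning 1.2 log2 units) on the 3 control and 3 knockout arrays, with replicate numbers, the group mean (line) and SD (bar). In Sypl2 the 3 knockout arrays (8.68 to 8.72) lie below the 3 control arrays (9.28 to 9.32), while in the other 9 genes the groups overlap.

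The 3 voltage-gated channel genes had small changes below 0, and none passed the limma test. Cacna1c, the pore of the L-type channel whose current triggers each contraction, had log2 values of 9.87, 9.97 and 9.99 in control replicates 1, 2 and 3 and 9.91, 9.79 and 9.72 in knockout replicates 1, 2 and 3. Knockout replicate 1 lay inside the control range and the other two lay below it. The change was -0.14 ± 0.07 (SE) with a limma adjusted p of 0.359, and its 95% confidence interval ran from -0.31 to 0.03. Cacna1h, the pore of a T-type channel that opens at more negative potentials and is typical of embryonic heart muscle, stood at 9.59, 9.59 and 9.68 in controls and at 9.67, 9.43 and 9.53 in knockouts. Again knockout replicate 1 was inside the control range and the others were below it, and the change of -0.08 ± 0.07 (SE) had a limma adjusted p of 0.646. Cacna2d2, an auxiliary alpha2-delta subunit that helps bring channels to the membrane, stood at 10.17, 10.18 and 10.24 in controls and at 10.28, 10.01 and 10.03 in knockouts. Here knockout replicate 1 was the highest of all 6 arrays and knockout replicates 2 and 3 were the lowest. The change of -0.09 ± 0.08 (SE) had a limma adjusted p of 0.626. Leaving out 1 array moved it between -0.17 without knockout replicate 1 and -0.040 without knockout replicate 2, and moved Cacna1h between -0.14 and -0.020 without the same 2 arrays.

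Ryr2 codes for the ryanodine receptor through which heart muscle releases stored calcium. Its log2 values were 10.21, 10.34 and 10.31 in controls and 10.35, 10.08 and 9.98 in knockouts, so the knockout array of replicate 1 was the highest of the 6 and the other two were the lowest. The SD over knockouts was 0.19, against 0.07 over controls. The change was -0.15 ± 0.10 (SE), the limma adjusted p was 0.469 and the 95% confidence interval ran from -0.39 to 0.08. Leaving out 1 array at a time moved this change between -0.26 and -0.075. It was -0.26 ± 0.07 (SE) without knockout replicate 1, with a limma adjusted p of 0.154. Without knockout replicate 3 it was -0.075, with a limma adjusted p of 0.818.

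Casq2, which did not pass, codes for cardiac calsequestrin, which binds calcium inside the reticulum. It stood at 12.08, 12.45 and 12.36 in controls and at 12.43, 12.60 and 12.57 in knockouts, and control replicate 2 lay above knockout replicate 1 while control replicate 1 was the lowest array. The change was 0.23 ± 0.10 (SE), a signal 17.4% higher, with a limma adjusted p of 0.301 and a 95% confidence interval from -0.01 to 0.47. Leaving out 1 array at a time moved this change between 0.12 and 0.31, and no adjusted p fell below 0.247.

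Sypl2 codes for mitsugumin 29, a membrane protein of the synaptophysin family known from the junctions between transverse tubules and reticulum in skeletal muscle. Its log2 values were 9.28, 9.31 and 9.32 in control replicates 1, 2 and 3 and 8.68, 8.72 and 8.70 in knockout replicates 1, 2 and 3. The groups were far apart relative to the spread within them, with a gap of 0.56 between the lowest control and the highest knockout and an SD of 0.02 in each group. A gap of that size or more, in either direction, was found in 26 of all genes (0.175%). Groups that did not overlap, whatever the gap, were found in 1 of the 10 members and in 24.6% of all genes, 10.4% with the knockouts below. Sypl2 fell by 0.60 ± 0.05 (SE) on the log2 scale, to a fold of 0.660 of the control signal, with a limma adjusted p of 0.00906 and a 95% confidence interval from -0.72 to -0.48. By size it was number 17 of the 33 genes that passed the threshold as lower, and 8 of all genes had a smaller p. Its SD within groups was 0.02, whereas the median gene had 0.09, and 0.579% of genes had a smaller one. The standard error comes from a variance that limma draws towards that of all genes, and it is larger than the spread of these 6 values alone would give. The size of the change hardly moved when arrays were left out, from -0.61 to -0.59, but the adjusted p rose to 0.0643 without control replicate 1 and to 0.0605 without control replicate 2. It was 0.0464 without control replicate 3, the array that stood apart in Y-linked genes. When all 23332 rows of the array were tested, the unnamed included, the change was the same and the limma adjusted p was 0.0849.

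**Figure D2:**
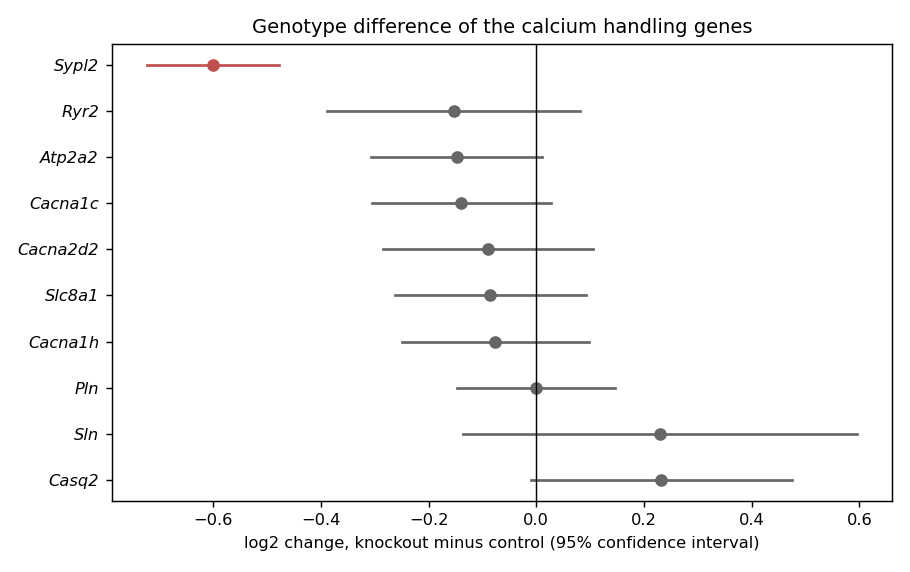
Log2 change of each calcium handling gene, knockout minus control (horizontal axis), as the limma estimate (point) with its 95% confidence interval (line). The interval of Sypl2, from -0.72 to -0.48, lies apart from 0, and those of the other 9 genes include 0.

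Skeletal muscle markers had a higher summed signal in the knockout arrays, where Sypl2 was lower. Of 17 listed markers 15 were measured, and their summed signal was 13.26 to 13.35 in controls and 13.62 to 13.77 in knockouts on the log2 scale. This sum is of linear values, so the brightest genes of the list weigh most. They were Ckm, with means of 12.10 in controls and 12.60 in knockouts, and Acta1, with 11.89 and 11.94. In that list 1 gene passed the limma test over all genes as higher, Tnnt3 at 1.81, and 1 as lower, Mybpc1 at -0.70. The median change was 0.11, with 11 of 15 genes above 0. At an unadjusted p under 0.05 there were 5 above 0 and 1 below. Besides Tnnt3 the larger changes above 0 were in Tnni2, a fast troponin I, at 0.67 and in Ckm, the muscle creatine kinase that heart muscle also expresses, at 0.49, with limma adjusted p-values of 0.0867 and 0.111. The myogenic regulators, which define the lineage, had small changes with adjusted p-values from 0.275 to 0.812, namely Myod1 at -0.06, Myf5 at -0.13, Myog at 0.04 and Myf6 at 0.18. Their control means, from 5.41 (Myf6) to 7.09 (Myod1), lay below the array medians of 8.25 to 8.36. Whether they were detected was not tested. Blood and immune markers moved as well. Erythroid markers were lower in 12 of 12 measured genes with a median of -0.90 and 6 past the test, and Trim10, a gene of red cell maturation, changed most (-1.33). Macrophage markers were higher in 10 of 10 with a median of 0.37 and 2 past the test, and the Fc receptor Fcgr3 changed most (0.69). The summed erythroid signal was 15.55 to 15.68 in controls and 15.23 to 15.37 in knockouts. Hbb-y (-0.11) and Hba-x (-0.26) were the brightest genes of that list and weigh most in its sum. The summed macrophage signal was 11.48 to 11.64 in controls and 11.88 to 12.00 in knockouts. The part of these marker groups in the Sypl2 result was not tested.

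The fall in Sypl2 was not shared by its measured neighbours on chromosome 3, a comparison chosen after the Sypl2 value was seen. Of the 3 nearest measured protein-coding genes on each side 0 passed the limma test over all genes, with changes from -0.11 in Wdr47 to 0.17 in Tmem167b. Tmem167b was the 1 of these 6 with an unadjusted p under 0.05, at 0.0288. Atxn7l2, the nearest measured gene on the other side of Sypl2, had a change of 0.07 ± 0.07 (SE). Over the 6 arrays the genes whose profile, centred on its own mean, lay closest to that of Sypl2 were Fam220a, the interferon-induced gene Rsad2 and the potassium channel gene Kcnj8. They had root mean square differences from Sypl2 of 0.05, 0.06 and 0.07 on the log2 scale, and log2 changes of -0.52, -0.55 and -0.53. The Sypl2 profile is mostly its genotype difference, so changes of similar size follow from picking genes by this likeness.

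**Figure D3:**
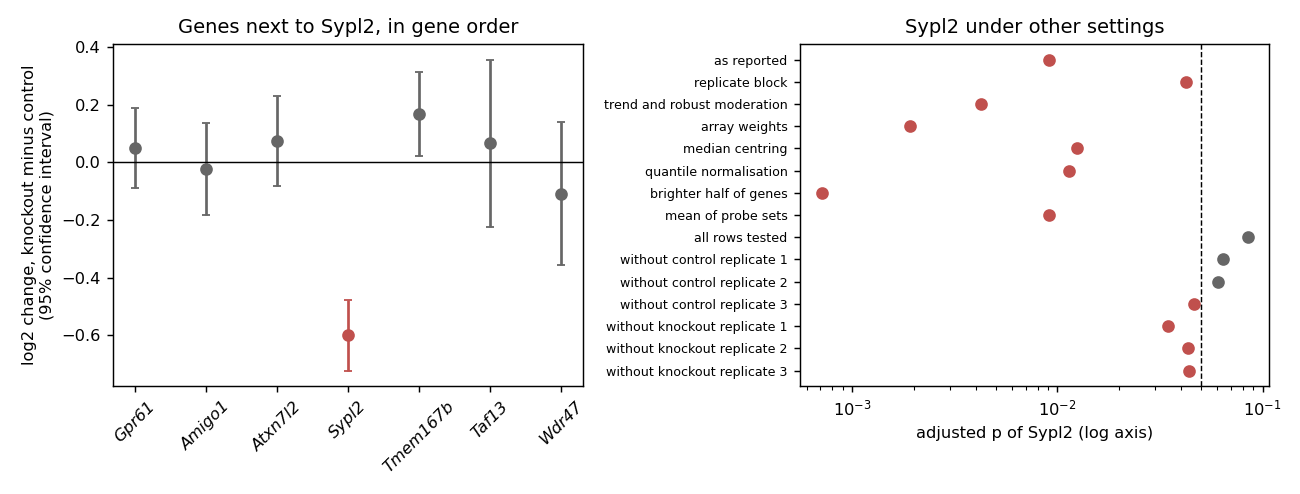
Left, log2 change (knockout minus control) with its 95% confidence interval for Sypl2 and the 3 nearest measured genes on each side, in gene order. Right, adjusted p of Sypl2 on a log axis as reported (0.00906) and under 14 other settings, with the threshold of 0.05 dashed. Sypl2 at -0.60 lies below its 6 neighbours, and its adjusted p lies above the threshold in 3 settings.

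The pump gene Atp2a2 and the genes of its inhibitors, Pln and Sln, did not pass the limma test. Atp2a2 codes for SERCA2, which returns calcium to the reticulum. It stood at 12.91, 13.05 and 13.06 in controls and at 12.92, 12.88 and 12.78 in knockouts, so the groups overlapped by control replicate 1 and knockout replicate 1 only. The change was -0.15 ± 0.07 (SE), a signal lower by 9.74%, with a limma adjusted p of 0.314. Its interval ran from -0.31 to 0.01. Pln codes for phospholamban, the small membrane protein that holds SERCA back until it is phosphorylated. It stood at 13.44, 13.45 and 13.47 in controls and at 13.36, 13.46 and 13.53 in knockouts, which lay on both sides of the controls. The change of 0.00 ± 0.06 (SE) had a 95% confidence interval from -0.15 to 0.15. Sln codes for sarcolipin, a related SERCA inhibitor that in the mouse heart is found mainly in the atria. It stood at 8.94, 8.77 and 9.40 in controls and at 9.12, 9.35 and 9.33 in knockouts.

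Control replicate 3 had the highest Sln value of all 6 arrays, and the other 2 controls had the lowest. The change of 0.23 ± 0.16 (SE) had a limma adjusted p of 0.488. Without control replicate 3 it was 0.41 ± 0.10 (SE), with a limma adjusted p of 0.201. Leaving out the highest control had to raise the change. Without control replicate 2 the change was 0.098, with a limma adjusted p of 0.802. The changes of Sln and Casq2 were alike in size, and without control replicate 3 that of Casq2 was 0.26. Atrial markers had a summed signal of 14.93 to 14.95 in controls and 15.14 to 15.16 in knockouts. Of 8 measured atrial markers 1 passed, Bmp10 at 0.71, which trabecular muscle also expresses, and the median change was 0.03 with 6 of 8 above 0. Nppa, the atrial natriuretic peptide gene, had a change of 0.25, the transcription factor gene Nr2f1 one of -0.50, and Myl7, the atrial myosin light chain, one of 0.03, with limma adjusted p-values of 0.128, 0.0666 and 0.809. The summed signal is of linear values, so the brightest of the 8 weigh most in it. These were Nppa, with means of 13.57 in controls and 13.82 in knockouts, and Myl7, with 13.14 and 13.17. The part of atrial tissue in the Sln values was not tested.

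Slc8a1, the sodium-calcium exchanger NCX1 that removes calcium from the cell after each beat, stood at 12.02, 12.16 and 12.15 in controls and at 12.12, 12.05 and 11.91 in knockouts. The groups overlapped, with knockout replicate 3 below all controls. The change was -0.09 ± 0.08 (SE) with a limma adjusted p of 0.605, and it lay between -0.13 without knockout replicate 1 and -0.027 without knockout replicate 3. The other Slc8a1 probe set had 11.53 ± 0.04 (SD, n = 3) in controls and 11.57 ± 0.08 (SD, n = 3) in knockouts, a change of 0.03 ± 0.07 (SE). The 2 probe sets of Slc8a1 thus had changes of opposite sign, both smaller than 2 standard errors.

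Knockout replicate 1 differed from the other 2 knockouts in several members. It was the highest of the 3 knockouts in 6 of 10 members, namely Ryr2, Atp2a2, Slc8a1, Cacna1c, Cacna1h and Cacna2d2, as it was in 38.9% of all genes. Knockout replicates 2 and 3 both lay below all 3 controls in 6 of 10 members, and in 19.3% of all genes. These 6 were Ryr2, Atp2a2, Cacna1c, Cacna1h, Cacna2d2 and Sypl2. Without knockout replicate 1, limma gave an unadjusted p under 0.05 in 5 of 10 members, where 19.9% of all genes had one. They were Ryr2, Casq2, Cacna1c, Cacna2d2 and Sypl2, and Casq2 was the member among them with a change above 0. Adjusted over all genes, Sypl2 passed without that array, with a limma adjusted p of 0.0347, and the other 9 did not, where 0.175% of all genes passed. With all arrays 1 of 10 members, lower in the knockout, had a limma unadjusted p under 0.05. Among all genes 17.5% had one, 6.8% lower and 10.7% higher. Without control replicate 3 there were 2 of 10 members, where 14.7% of all genes had one. Knockout replicate 1 was singled out by its values in these same members. Leaving it out had to enlarge the falls of the 6 in which it was highest. The 2 counts of 6 and the count of 5 all rest on that choice, and the shares of all genes beside them do not. None of these counts is therefore a test of the members.

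Of 97 further genes of the calcium cycle, listed by textbook role, 71 were measured and 0 passed limma's adjusted threshold. At an unadjusted p under 0.05 there were 12 (5 higher, 7 lower), which is 16.9% of the 71 and close to the 17.5% of all genes. Their median change was 0.00, with 33 above 0 and 38 below. The groups did not overlap in 18 of them, with all knockouts above in 9 and below in 9, against 14.2% and 10.4% of all genes. The smallest adjusted p was that of Slc24a3, a potassium-dependent sodium-calcium exchanger, which stood at 8.59 ± 0.09 in controls and 8.19 ± 0.03 in knockouts (SD, n = 3 each). Its change of -0.39 ± 0.06 (SE) had a limma adjusted p of 0.0553, just above the threshold, and it was under the threshold in 5 of 14 other settings, at 0.0106 to 0.0378.

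Partners of the release channel had a median change of 0.04 over 12 measured genes, and store genes one of 0.04 over 7. Fkbp1b, the calstabin that binds to Ryr2, stood at 7.83 ± 0.32 in controls and 8.55 ± 0.24 in knockouts (SD, n = 3 each), all 3 knockouts above all 3 controls. Its change of 0.71 ± 0.18 (SE) was the largest of the 71 and had a limma adjusted p of 0.129. Itpr3, an inositol trisphosphate receptor, had a change of 0.13, and Asph, whose products include the reticulum protein junctin, had 0.10. Of the 7 measured store genes 3 had an unadjusted p under 0.05, all above 0, where 10.7% of all genes had one above 0. They were S100a1 (0.40 ± 0.09, SE), a calcium sensor that binds SERCA and Ryr2, Hrc (0.27 ± 0.08), the histidine-rich calcium binding protein of the reticulum, and Srl (0.21 ± 0.06), which codes for sarcalumenin. Their limma adjusted p-values lay between 0.123 and 0.175.

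Genes of calcium entry, extrusion and control had values on both sides of 0. Among 14 measured channel subunits the smallest p belonged to Cacna1d (-0.31 ± 0.09, SE), the pore of the L-type channel of atrial and pacemaker cells, then to the auxiliary subunit Cacna2d3 (-0.16) and to Cacna1a (0.10). The list of SERCA pumps and regulators leaves out the members, of which Sln was at 0.23. Its 6 measured genes were all below 0, as were 48.4% of all genes, and 1 had a limma unadjusted p under 0.05. This was Camk2b, a subunit of a calmodulin-dependent kinase, at -0.34 ± 0.09 (SE). Atp2a3 was at -0.10 and Atp2a1 at -0.05 ± 0.06 (SE). Of 9 extrusion genes 8 were below 0, beside the same 48.4% of all genes. Slc24a2 was at -0.28 and the membrane calcium pump Atp2b4 at -0.19, after Slc24a3. Store-operated entry genes were split, 3 above and 3 below 0, with Orai3 at 0.16, Orai2 at 0.15 and Trpc1 at -0.09. In mitochondrial transport the sodium-calcium exchanger Slc8b1 was at 0.19 ± 0.05 (SE), Letm1 at -0.25 ± 0.08 and the outer membrane channel Vdac2 at 0.12. In beta-adrenergic control the protein kinase A subunits Prkar2a and Prkaca were at -0.30 ± 0.08 (SE) and -0.24 ± 0.11, and the phosphatase subunit Ppp1ca was at 0.10. Slc24a3 aside, the limma adjusted p of the genes named in these sentences lay between 0.138 (Camk2b) and 0.706 (Atp2a1). Several of these values moved when single arrays were left out, in size and not in sign. Without control replicate 3, for example, Vdac2 was at 0.073, Atp2a3 at -0.17 and Atp2a1 at -0.027.

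**Figure D4:**
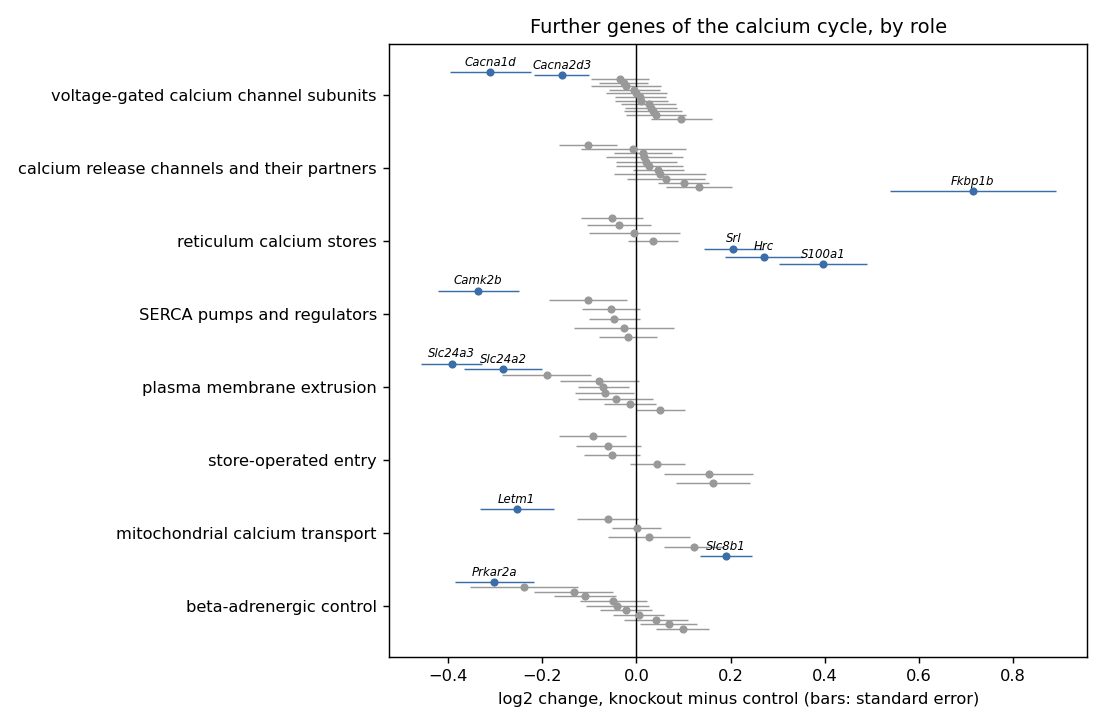
Log2 change (knockout minus control) of the 71 further calcium cycle genes by role, with standard errors as bars. The 12 genes at an unadjusted p under 0.05 are blue and named, from Slc24a3 at -0.39 to Fkbp1b at 0.71, and 0 of the 71 passed after adjustment over all genes.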

How the data were processed

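The deposited log2 values came from RMA, run by the authors in Affymetrix Expression Console according to the submitters' processing notes, which name no version. RMA brings the arrays to 1 distribution and compresses changes of dim probe sets, and no detection p-values were used here. The number of arrays limits the precision. The pools are labelled as biological replicates.

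Of 23332 rows 14996 named 1 gene, 1019 named several and 7317 were unnamed here. The probe set of highest mean was kept per gene, leaving 14860 genes with no filter. Genotypes, taken from the sample titles, were compared with limma 3.58.1 (lmFit, eBayes) in R 4.3.3, two-sided, with Benjamini-Hochberg adjustment over all genes. The moderated test had 7.46 degrees of freedom. A marker list's summed signal is log2 of the sum of its linear values. Alternatives were a replicate block, other moderation, weights, scalings and filters, other rows, and each array left out.

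Members and lists were chosen with earlier results of these data known. Named were all 10 members, Hic2, and per role list the genes past the threshold or otherwise the 3 of smallest p. Of each marker list the gene of largest change was named, and for the member of largest change the 3 genes of most similar profile. Other marker genes given with values, and the neighbours of Sypl2, were added after their values were seen.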

Additional observations from a re-analysis of the deposited data

How the results depend on the processing

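The fall in Sypl2 kept its direction in all 14 settings, from -0.62 to -0.58 on the log2 scale, and passed in 11. It missed the threshold with all rows tested (-0.60, adjusted p = 0.0849), where 0 of 10 members passed, and when control replicate 1 or 2 was left out. Leaving out 1 array gave -0.61 to -0.59 for Sypl2, 0 to 1 members past the threshold, a members' median of -0.16 to -0.061, and 3 to 28 of all genes past the threshold. The count of all genes, 83 as reported, was 38 with the replicate block, 203 with trend and robust moderation, 733 with array weights, 443 in the brighter 7430 genes, and 0 with all rows tested, where limma gave 2935 rows an unadjusted p under 0.05. The cause of these shifts was not tested. The count of further calcium cycle genes was 1 (Slc24a3) with trend and robust moderation, with median centring and with quantile normalisation, 7 with array weights and 3 in the brighter genes. Pln, at 0.00 as reported, was above 0 with array weights (0.013) and ranged from -0.040 to 0.045 when 1 array was left out. Whether the replicate numbers pair the samples is not known here. Deviations of same-numbered arrays from their group means correlated at -0.04, 0.02 and 0.13 over genes. Control replicate 2 correlated best with knockout replicate 1 (0.22). Deviations from a mean of 3 arrays constrain one another, so these correlations cannot decide the question. With the replicate block the limma adjusted p of Sypl2 was 0.0421, and 1 of 10 members passed as before. With 3 arrays per group, changes of the size seen in the other members were not resolved.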

Other observations

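Markers of other heart cell types were measured on the same arrays. Conduction and pacemaker markers had a median log2 change of -0.17 over 6 measured genes, with Shox2, a transcription factor of the sinus node, at -0.24 and 0 past the limma threshold over all genes, while 2 had an unadjusted p under 0.05. Ventricular markers had a median of 0.07 over 7 genes and 0 past the threshold, with 1, the potassium channel subunit Kcne1 at 0.54, at an unadjusted p under 0.05. Epicardial markers had a median of 0.34 over 8 genes, of which 7 were above 0. Of these, 6 had an unadjusted p under 0.05 and 3 passed the limma threshold over all genes. Aldh1a1, an enzyme of retinoic acid synthesis, changed most (0.75). The medians were 0.01 for 9 endothelial genes (Emcn at 0.35), -0.06 for 6 smooth muscle genes (Pdgfrb at -0.14), -0.10 for 7 mesenchyme genes (Pdgfra at -0.35) and -0.10 for 3 neural genes (Stmn2 at -0.31). None of these last 4 lists had a gene past the threshold, and 2, 0, 2 and 0 of their genes had an unadjusted p under 0.05.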
